A study of Homo sapiens with 12 samples.

Results

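The trefoil factors TFF1, TFF2 and TFF3 were examined in 2 gastric cancer cell lines that overexpressed ESRRG, the orphan nuclear receptor estrogen-related receptor gamma. Every probe that the array's annotation assigns to these genes was taken, which gave 1 probe per gene and 3 of 47323 probes in all. They were ILMN_1722489 for TFF1, ILMN_1663919 for TFF2 and ILMN_1811387 for TFF3. The family was chosen by the AGS change of TFF1, the largest rise of all probes tested in that line, so the AGS changes of the trefoil genes and their levels across groups are described and not tested.

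AGS and MKN45 are established human gastric cancer lines. The AGS ESRRG OE and MKN45 ESRRG OE groups received a lentivirus carrying the full-length ESRRG cDNA under the EF1 promoter, and the AGS control and MKN45 control groups received a control lentiviral vector. RNA was taken after 3 days of overexpression, so all 12 samples came from virus-exposed cultures. Each group had 3 samples, and the labels do not state whether these were separate cultures. The p-values therefore cover the variation among these arrays alone, which may be technical.

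Trefoil factors are small secreted peptides folded into clover-like loops held together by disulfide bonds, and they are stored and released with the mucins of the gut surface. In the stomach, TFF1 accompanies the mucin MUC5AC in surface pit cells and TFF2 accompanies MUC6 in mucous neck and antral gland cells, whereas TFF3 is best known from intestinal goblet cells, where it accompanies MUC2. TFF1 is also known as pS2, a classical estrogen-responsive gene of breast cancer cells, and mice lacking Tff1 develop antral adenomas.

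Across the 12 arrays, 18795 to 20397 probes were detected per array, meaning that the detection p against the negative control probes was under 0.05. All 5 epithelial markers (EPCAM, CDH1, KRT8, KRT18 and KRT19) were detected on every array. In AGS 1 was higher, 1 lower and 3 not called, where 43.0% of all probes tested were called. In MKN45 1 was higher, 2 lower and 2 not called, with 34.3% of all probes called. KRT8 was lower by -0.84 in AGS (adjusted p = 2.31e-06) and -0.82 in MKN45 (adjusted p = 6.82e-05), both from limma. KRT19 was lower in MKN45 by -0.62 (adjusted p = 2.21e-04, limma). The higher calls were CDH1 in AGS (0.23) and EPCAM in MKN45 (0.30). Of 6 markers of other cells, PTPRC of leukocytes and COL3A1 of fibroblasts were detected on no array, and CD68, a lysosomal protein used as a macrophage marker, was higher on ESRRG overexpression in AGS (9.73 in ESRRG OE against 9.18 in control, adjusted p = 0.00461, limma) and in MKN45 (9.68 in ESRRG OE against 9.32 in control, adjusted p = 0.0217, limma). The other 2 CD68 probes were also higher, by 0.73 and 0.54 in AGS and by 1.44 and 0.77 in MKN45. Beyond these, COL1A1 was near background (7.18 in AGS ESRRG OE against 7.11 in AGS control) and COL1A2 and PECAM1 missed the filter in both lines. The summed intensity of the 6 markers ran from 1234 to 1711 in AGS ESRRG OE against 948.3 to 1272 in AGS control samples, and from 1475 to 1739 in MKN45 ESRRG OE against 963.1 to 1602 in MKN45 control samples, and its part in the trefoil values was not tested. Of the 3 ESRRG probes, 2 were detected on no array and the remaining probe averaged 6.90 in AGS ESRRG OE against 7.27 in AGS control and 6.94 in MKN45 ESRRG OE against 6.91 in MKN45 control. Whether these probes lie within the introduced cDNA is not known here, so they do not check the labels.

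TFF1 was close to background in the control samples of both lines and far above it in the ESRRG OE samples. On the deposited quantile-normalized log2 scale, the AGS ESRRG OE samples had TFF1 values of 12.11, 12.43 and 12.17, and the AGS control samples had 7.02, 6.80 and 6.93. The MKN45 ESRRG OE samples had 12.86, 12.94 and 12.80, and the MKN45 control samples had 7.17, 7.44 and 7.49. In each line the groups were far apart, with the lowest ESRRG OE sample 5.09 above the highest control sample in AGS and 5.31 above it in MKN45. Groups that did not overlap, with ESRRG OE higher, were found for 24.2% of the probes tested in AGS and 22.8% of those tested in MKN45.

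The same separation was present in the intensities before normalization, which are on a linear scale. They averaged 4594 ± 1010 in AGS ESRRG OE and 118.1 ± 9.84 in AGS control, and 8866 ± 614 in MKN45 ESRRG OE and 157.5 ± 43.2 in MKN45 control (SD, n = 3 each). The lowest intensity of any probe on any array was 69.7, so the control values of TFF1 stood little above the bottom of the scale. The detection p was 0 on all 6 ESRRG OE arrays. Among the AGS control arrays it was 0.0442, 0.345 and 0.0974, which places a single array under 0.05, and among the MKN45 control arrays it was 0.0117, 0.0026 and 0.0013, all under 0.05.

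**Figure D1:**
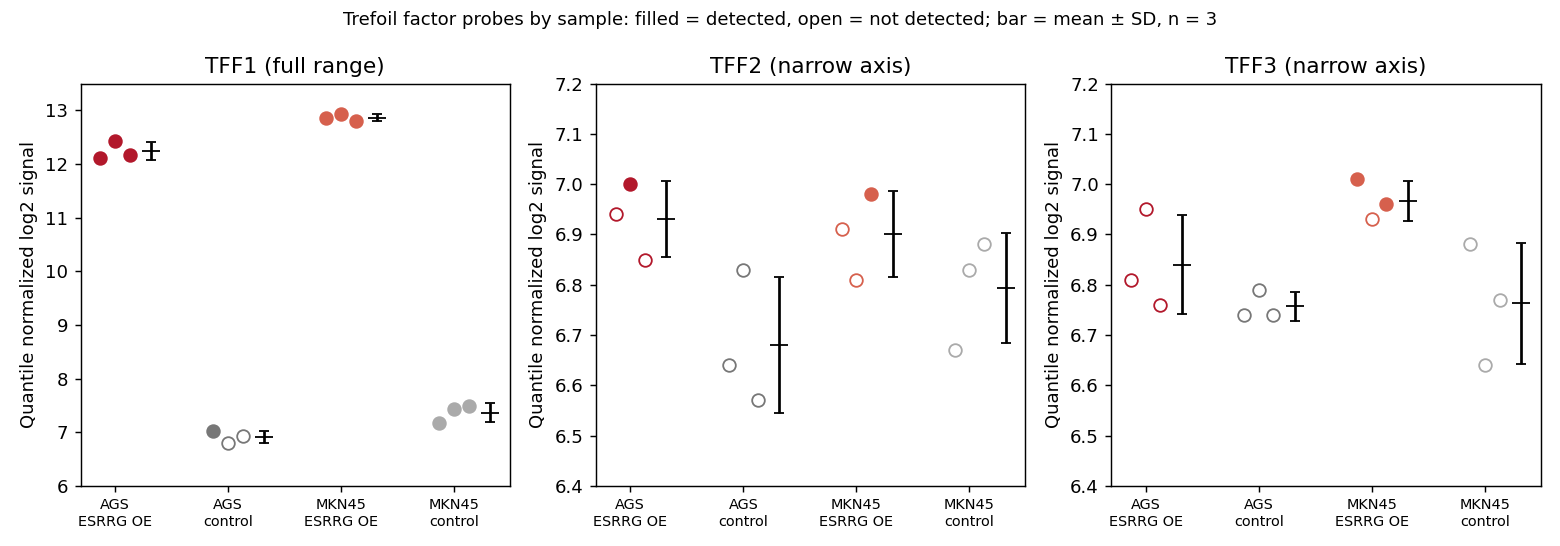
Log2 signal of the TFF1, TFF2 and TFF3 probes in each sample of the 4 groups, with 1 point per sample, a bar at the group mean ± SD, filled points where the detection p was under 0.05, and a narrower axis for TFF2 and TFF3. TFF1 lies between 12.11 and 12.94 in the 6 ESRRG OE samples and between 6.80 and 7.49 in the 6 control samples, whereas TFF2 and TFF3 lie between 6.57 and 7.01 in all 12.

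In MKN45 cells TFF1 averaged 12.87 ± 0.07 in ESRRG OE and 7.37 ± 0.18 in control samples (SD, n = 3 each). The log2 fold change was 5.50 (SE 0.09), a 45.3-fold higher signal on the normalized scale, with an adjusted p of 1.73e-13 from limma over the 20143 probes tested in this line. Of those probes 34.3% were called at an adjusted p under 0.05, 17% higher and 17.3% lower. TFF1 had the second largest rise, behind CST4, a secreted cystatin that inhibits cysteine proteases, with 5.87. The trefoil genes were chosen with earlier results of these data known, so the MKN45 p of TFF1 is no independent test of that choice.

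In AGS cells TFF1 averaged 12.24 ± 0.17 in ESRRG OE and 6.92 ± 0.11 in control samples (SD, n = 3 each). The difference of 5.32 (SE 0.10) ranked first among 19536 probes, of which 43.0% were called, 20.3% higher and 22.7% lower. Because most AGS control arrays did not detect TFF1, the AGS ESRRG OE mean was also set against the higher of the lowest detected signal on each control array and TFF1's own value there, and it exceeded that floor 37.4-fold. In bulk RNA, a change in the share of cells that make a transcript and a change in the amount per cell cannot be told apart.

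TFF2, the spasmolytic peptide of mucous neck cells, stayed at background level in nearly all samples. It was 6.94, 7.0 and 6.85 in AGS ESRRG OE and 6.64, 6.83 and 6.57 in AGS control samples, and 6.91, 6.81 and 6.98 in MKN45 ESRRG OE and 6.67, 6.83 and 6.88 in MKN45 control samples. It was detected on 1 AGS ESRRG OE array (detection p 0.0403) and 1 MKN45 ESRRG OE array (detection p 0.0390), and on no control array. The groups did not overlap in AGS, by a margin of 0.02, and overlapped in MKN45.

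TFF3, the intestinal member, was likewise near background. It was 6.81, 6.95 and 6.76 in AGS ESRRG OE and 6.74, 6.79 and 6.74 in AGS control samples, and 7.01, 6.93 and 6.96 in MKN45 ESRRG OE and 6.88, 6.64 and 6.77 in MKN45 control samples. Only 2 MKN45 ESRRG OE arrays detected it, with detection p of 0.0299 and 0.0468. Here the groups overlapped in AGS and did not overlap in MKN45, where the margin was 0.05.

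Neither TFF2 nor TFF3 reached detection on 3 of the 6 arrays of a line, the minimum for entering the test, so TFF1 was the only trefoil gene tested. The difference between the ESRRG OE and control means was 0.25 (SE 0.08) for TFF2 and 0.08 (SE 0.07) for TFF3 in AGS, and 0.11 (SE 0.08) for TFF2 and 0.20 (SE 0.08) for TFF3 in MKN45. No fold is given, since in both lines both means lay at or under the lowest detected signal. With no detection filter the adjusted p in MKN45 was 0.504 for TFF2 and 0.0979 for TFF3 (limma), neither past the threshold. Among the probes that missed the filter, 5.6% in AGS and 5.82% in MKN45 had ESRRG OE samples wholly above the control samples, as TFF2 had in AGS and TFF3 in MKN45. A larger rise than that of TFF2 was found in 0.256% of such probes in AGS and 7.37% in MKN45, and a larger rise than that of TFF3 in 12.7% in AGS and 0.611% in MKN45. The filter itself removes probes that rise clearly above background from this set.

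The order of TFF1 levels was MKN45 ESRRG OE, AGS ESRRG OE, MKN45 control and AGS control, and no 2 neighbors in that order overlapped in their samples. The share of all probes that separate the 2 lines in this way was not counted, so the order is a description alone. The AGS mean was lower than the MKN45 mean by 0.63 log2 units among the ESRRG OE samples (12.24 against 12.87) and by 0.45 among the control samples (6.92 against 7.37). Because a single AGS control array detected TFF1, the control difference has only a bound, and with background correction against the negative control probes (neqc) it was -1.17, AGS minus MKN45. For TFF2 and TFF3 the samples of the 2 lines overlapped under either vector, and the differences of the means, AGS minus MKN45, ran between -0.13 and 0.03.

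The size of the TFF1 change depended on the processing. With intensities scaled to 1 median in place of quantile normalization it was 5.19 (36.4-fold) in AGS and 5.73 (53.2-fold) in MKN45. With neqc, which also normalizes to common quantiles, it was 7.23 (151-fold) in AGS and 6.70 (104-fold) in MKN45. The correction takes the AGS control mean to 4.98 and the MKN45 control mean to 6.15 while the ESRRG OE means remain at 12.21 and 12.85. A single AGS control array detected TFF1, so the AGS folds rest largely on undetected control values and are not measured sizes. The change was larger in MKN45 than in AGS by 0.18 on the deposited values, by 0.55 with scaling to 1 median and by 0.44 with quantile normalization within each line. With neqc it was larger in AGS by 0.53, so the data give no settled order of the lines for the size of the TFF1 change. Its direction was the same under all 4 settings.

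**Figure D2:**
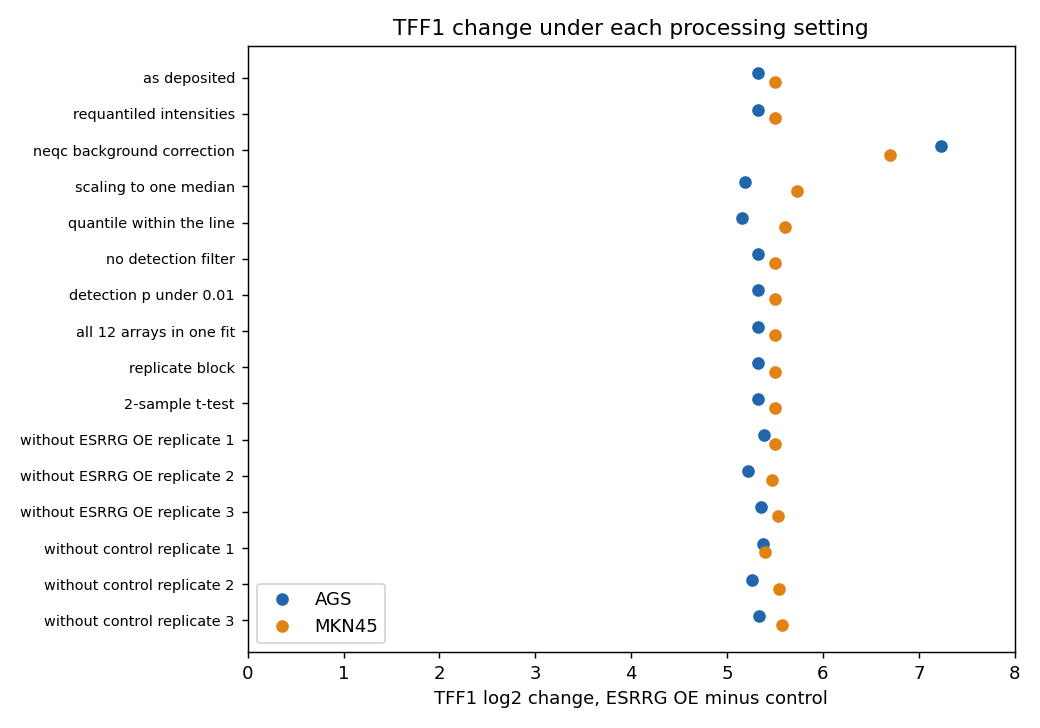
TFF1 log2 fold change, ESRRG OE minus control, in AGS and MKN45 cells under the deposited normalization and the other settings named on the axis. The deposited values give 5.32 in AGS and 5.50 in MKN45, and neqc gives the largest changes, 7.23 in AGS and 6.70 in MKN45.

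TFF3, TFF2 and TFF1 lie side by side on human chromosome 21, so the genes around them were read on the same arrays. The order of genes was taken from the RefSeq annotation of GRCh38.p14, and 5 protein-coding genes were read on each side: PRDM15, C2CD2, ZBTB21, UMODL1 and ABCG1 beyond TFF3, and TMPRSS3, UBASH3A, RSPH1, SLC37A1 and PDE9A beyond TFF1. In AGS, 2 of the 6 neighbors tested were higher, 2 were lower and 2 did not pass, with a median change of 0.00 against -0.02 over all probes tested, of which 43.0% were called. In MKN45, 1 of 5 was lower and 4 did not pass, with a median of -0.01 against -0.02 and 34.3% of all probes called. The 4 called in AGS became 2 when any 1 ESRRG OE sample or control replicate 2 was left out. The 1 called in MKN45 became 2 without control replicate 1.

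The neighbors that passed the test moved far less than TFF1. C2CD2, a C2 domain protein, was lower in AGS by a log2 change of -0.30 (adjusted p = 0.0115, limma) and in MKN45 by -0.37 (adjusted p = 0.00715, limma). Its other tested probe had -0.08 in AGS (adjusted p = 0.536, limma) and -0.10 in MKN45 (adjusted p = 0.347, limma), called in neither line. The first probe lost its call in both lines with scaling to 1 median and with each probe's own spread in place of limma's shared one. In AGS it also lost the call without ESRRG OE replicate 2. One of the 2 AGS neighbors called higher, PDE9A, a cyclic GMP phosphodiesterase, entered the test only through its 3 ESRRG OE arrays and was detected on no control array, so its call is no support for a change, and its ESRRG OE mean was at least 1.08-fold above the detection floor. ZBTB21, a zinc finger transcription factor, was higher by 0.25 (adjusted p = 0.026), and SLC37A1, a sugar phosphate exchanger, was lower by -0.22 (adjusted p = 0.0482), both in AGS from limma. Both are borderline calls: ZBTB21 lost its call without ESRRG OE replicate 1 or 3 or control replicate 2, and SLC37A1 lost it whenever any 1 of the 6 samples was left out. The genes directly flanking the cluster gave values near 0 or no test. In gene order next to TFF3, ABCG1, a cholesterol exporter, had -0.02 in AGS and 0.11 in MKN45 and was not called, and TMPRSS3, a membrane serine protease next to TFF1, was not tested in either line.

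**Figure D3:**
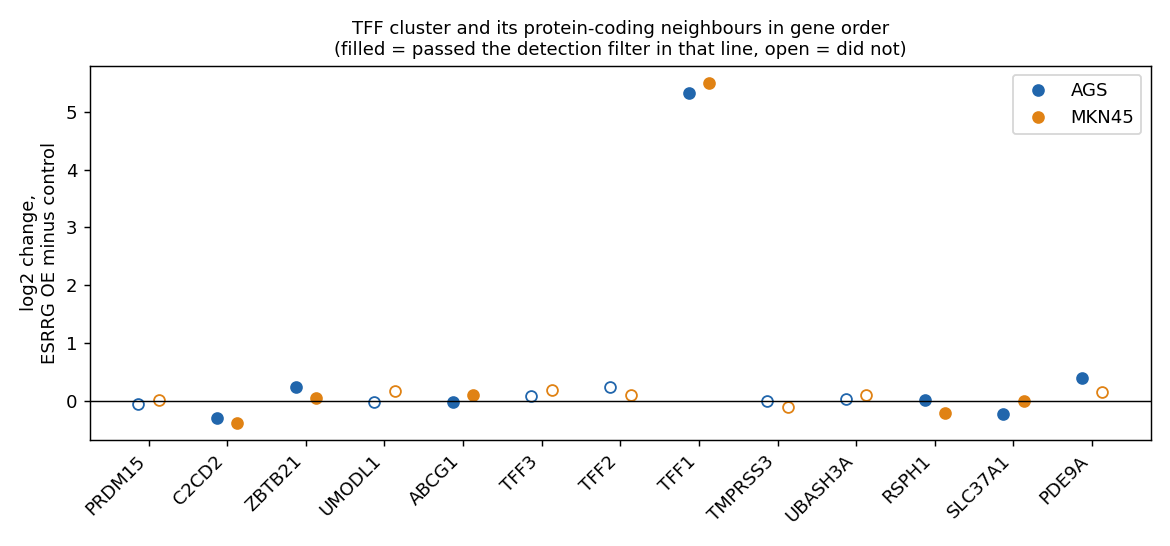
Log2 fold change, ESRRG OE minus control, of the trefoil genes and of the 5 genes on each side of them in chromosome order, in AGS and MKN45 cells, with filled points for probes that passed the detection filter in that line and open points for those that did not. TFF1 stands at 5.32 in AGS and 5.50 in MKN45, whereas the neighbors that passed the test lie between -0.37 and 0.40.

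The pattern of TFF1 over the 12 samples was compared with that of 16207 named probes detected on at least 3 arrays. The 5 most alike by Pearson correlation were SELENOP (r = 0.9964), BCL6 (0.9963), ABHD12 (0.9939), CBLIF (0.9937) and PNPLA8 (0.9931). These correlations describe 12 samples that fall into ESRRG OE and control clusters, and 13 probes exceeded 0.99. With scaling to 1 median, 2 of the 5 stayed among the 5 most alike, and the 5 ranked 2, 3, 96, 6 and 60. TFF2 and TFF3 were detected on too few arrays for such a comparison.

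CBLIF, the gastric intrinsic factor that carries vitamin B12, had the largest changes of these 5 genes. It averaged 10.32 ± 0.06 in AGS ESRRG OE against 6.69 ± 0.12 in AGS control, and 10.36 ± 0.10 in MKN45 ESRRG OE against 6.68 ± 0.19 in MKN45 control (SD, n = 3 each), and no control array detected it. Set against the detection floor, it was at least 9.95-fold higher in AGS and at least 10.4-fold higher in MKN45. BCL6, a transcriptional repressor of germinal center B cells, differed by 2.01 in AGS and 2.09 in MKN45, and SELENOP, a secreted selenium carrier, by 1.33 and 1.38. ABHD12, a lysophospholipid lipase, differed by 0.69 in AGS and 0.70 in MKN45, and PNPLA8, a phospholipase, by 0.85 and 0.88. The choice by correlation over these samples fixes that the 5 genes differ in the same direction as TFF1 in both lines.

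**Figure D4:**
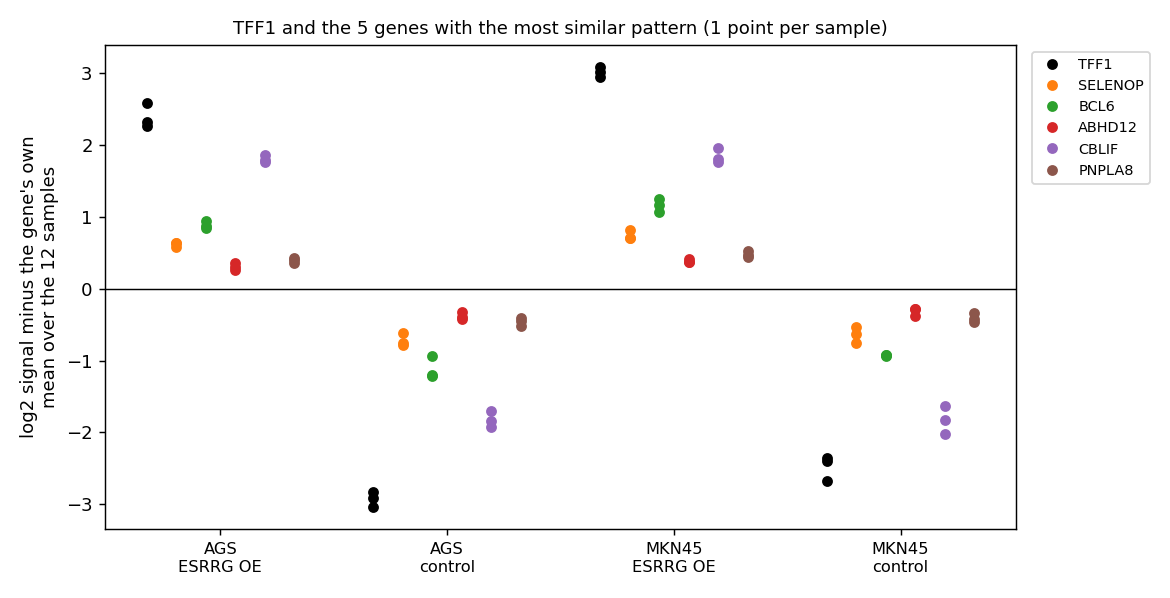
Log2 signal of TFF1 and the 5 genes with the most similar pattern, each as the difference from its own mean over the 12 samples, with 1 point per sample in the 4 groups. All 6 genes lie above 0 in the ESRRG OE samples and below 0 in the control samples of both lines.

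Genes that work with trefoil peptides were read next, starting with their mucin partners and binding proteins. Of 12 such genes 11 had a probe. In AGS, 5 were tested, of which 3 were higher, none lower and 2 not called, with a median change of 0.58 against -0.02 over all probes tested, 43.0% of which were called (20.3% higher). In MKN45, 7 were tested, of which 3 were higher, 1 lower and 3 not called, with a median of -0.02 against -0.02 and 34.3% of all probes called. MUC5AC, the usual companion of TFF1, had no probe here, and MUC2, the companion of TFF3, missed the filter in both lines. MUC6, the companion of TFF2, was near background, at 6.94 in ESRRG OE against 7.0 in control in AGS and at 7.10 in ESRRG OE against 7.14 in control in MKN45, and was not called.

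DMBT1, a scavenger receptor-like mucosal protein that binds trefoil peptides, had the largest change of the partners in both lines. It averaged 9.05 ± 0.26 in AGS ESRRG OE and 7.07 ± 0.05 in AGS control, a log2 change of 1.98 (SE 0.11, adjusted p = 3.5e-09, limma). In MKN45 it averaged 9.17 ± 0.18 in ESRRG OE and 7.40 ± 0.08 in control, a change of 1.77 (SE 0.10, adjusted p = 3.24e-08, limma). The AGS control mean stood near the detection floor of 7.01. With neqc the DMBT1 changes were 3.39 in AGS and 2.67 in MKN45, so their size depends on the processing. MUC13, a membrane mucin, was higher by 0.58 in AGS (adjusted p = 0.00246) and by 0.60 in MKN45 (adjusted p = 5.55e-04), both from limma, and neither call held with each probe's own spread. GKN2, a gastrokine that forms a dimer with TFF1, is 1 of the 3 counted as higher in MKN45, but it entered the test only through its 3 ESRRG OE arrays and no control array detected it, so the call is no support for a change. Its mean there was 7.11 in ESRRG OE against 6.67 in control, at least 1.10-fold above the detection floor. In AGS it was detected on 2 ESRRG OE arrays and was not tested, with 7.01 in ESRRG OE against 6.61 in control.

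AGR2 and MUC1 differed between the lines on the deposited values. AGR2, a disulfide isomerase of the secretory pathway that is needed for mucin folding, was higher in AGS by 0.85 (adjusted p = 1.29e-05, limma) and was at 10.23 in ESRRG OE against 10.25 in control in MKN45 (adjusted p = 0.934). Its other tested probe differed by 0.16 in AGS (adjusted p = 0.143) and was lower in MKN45 by -0.23 (adjusted p = 0.0348). MUC1, a membrane mucin of epithelial cells, was lower in MKN45 by -0.86 (adjusted p = 4.15e-05, limma) and had a change of -0.23 in AGS (adjusted p = 0.0503). Its other 2 probes had -0.20 (adjusted p = 0.0868) and -0.24 (adjusted p = 0.0311) in AGS, so 1 of its 3 probes was called lower there, and both were lower in MKN45, by -0.65 and -0.82. The change in AGS minus that in MKN45 was 0.87 for AGR2 (adjusted p = 0.00321) and 0.63 for MUC1 (adjusted p = 0.00908) in a limma interaction fit, in which 7.84% of probes were called. With scaling to 1 median neither difference passed, with adjusted p of 0.153 for AGR2 and 0.0856 for MUC1.

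Of 7 proposed receptors of trefoil peptides 6 had a probe and 2 were tested in each line. In AGS both were higher, with a median of 1.14 against -0.02 over all probes, 43.0% of which were called, and in MKN45 1 was higher and 1 was not called, with a median of 0.63 and 34.3% of all probes called. EGFR, the epidermal growth factor receptor, averaged 10.08 ± 0.10 in AGS ESRRG OE and 8.36 ± 0.18 in AGS control (change 1.73, adjusted p = 4.63e-09, limma), and 9.57 ± 0.23 in MKN45 ESRRG OE and 8.51 ± 0.11 in MKN45 control (change 1.06, adjusted p = 1.03e-05, limma). A second tested EGFR probe was also higher in both lines, by 0.80 in AGS and 0.23 in MKN45. ITGB1, the integrin beta 1 subunit, was higher by 0.56 in AGS (adjusted p = 7.09e-04, limma), a call lost with each probe's own spread, and differed by 0.19 in MKN45 (adjusted p = 0.231). Without MKN45 control replicate 1, both receptors were called in that line. CXCR4 and ACKR3, chemokine receptors proposed for trefoil peptides, and LINGO2 and LINGO3, leucine-rich repeat proteins proposed for TFF3 and TFF2 signaling, were below the filter in both lines.

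Of 15 transcription factors described to act on trefoil genes, 11 were tested in AGS, of which 6 were higher, 2 lower and 3 not called, with a median of 0.53 against -0.02 over all probes, 43.0% of which were called (20.3% higher). In MKN45, 10 were tested, of which 6 were higher, 1 lower and 3 not called. Their median was 0.37 against -0.02, with 34.3% of all probes called (17% higher). The 1 lower in MKN45 was STAT3, at -0.36 (adjusted p = 0.00479, limma), and its other tested probes were at -0.42 and -0.39. GATA4 was lower in AGS by -0.28 (adjusted p = 0.0184, limma). KLF4, a zinc finger factor of differentiated epithelium, was higher by 1.29 in AGS (adjusted p = 1.45e-08) and by 1.10 in MKN45 (adjusted p = 2.22e-06), and HIF1A, the hypoxia-inducible factor, by 1.11 in AGS (adjusted p = 1.19e-07) and by 1.30 in MKN45 (adjusted p = 8.98e-08), all from limma. Both had further tested probes that moved the same way. The forkhead factor FOXA2 was higher by 1.07 in AGS (adjusted p = 8.95e-07) and by 0.52 in MKN45 (adjusted p = 0.00255), and its relative FOXA1 by 0.53 in AGS (adjusted p = 3.71e-04) and by 0.74 in MKN45 (adjusted p = 3.02e-04), from limma. With each probe's own spread the MKN45 calls of both were lost.

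Among the receptors that share DNA sites with ESRRG, ESRRA was detected on all arrays and was higher in both lines, by 0.68 in AGS (9.88 ± 0.06 in ESRRG OE against 9.21 ± 0.04 in control, adjusted p = 8.82e-06) and by 0.51 in MKN45 (9.65 ± 0.03 in ESRRG OE against 9.13 ± 0.08 in control, adjusted p = 2.1e-04), both from limma. The estrogen receptors ESR1 and ESR2, the related receptor ESRRB and SPDEF, a goblet cell factor, were detected on no array. One of the 2 regulators called lower in AGS was ESRRG itself by its only tested probe, at -0.37 (adjusted p = 0.00774, limma). That probe was near background, at 6.90 in ESRRG OE against 7.27 in control, and was detected on 1 ESRRG OE and 3 control arrays. Whether it reads the introduced cDNA is not known, so the call does not describe the total ESRRG level.

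TFF1 is usually listed with other estrogen-responsive genes of breast cancer cells, and the calls among these ran in both directions. Of 20 such genes, TFF1 not among them, 19 had a probe. In AGS, 10 were tested, of which 3 were higher, 3 lower and 4 not called, with a median of -0.03 against -0.02 over all probes, 43.0% of which were called, and in MKN45, 12 were tested, of which 4 were higher, 2 lower and 6 not called, with a median of 0.04 and 34.3% of all probes called. PGR, the progesterone receptor, and GREB1, a cofactor of the estrogen receptor, were detected on no array.

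Within that list SIAH2, a ubiquitin ligase, was the most changed gene in both lines, with 10.34 ± 0.30 in ESRRG OE against 8.44 ± 0.07 in control in AGS (change 1.90, adjusted p = 1.27e-08, limma) and 10.45 ± 0.04 in ESRRG OE against 8.52 ± 0.13 in control in MKN45 (change 1.92, adjusted p = 2.95e-09, limma). XBP1, a factor of the secretory stress response, was higher by 0.96 in AGS and 0.79 in MKN45, and CTSD, a lysosomal protease, by 0.82 in AGS and 0.61 in MKN45. MYB, a transcription factor of proliferating cells, was lower by -0.81 in AGS and -0.93 in MKN45. RARA, the retinoic acid receptor alpha, was lower by -0.63 in MKN45. In AGS it was lower by -0.40 (adjusted p = 0.00605, limma), which is not among the 4 largest changes there. The 6 calls of this list in AGS became 4 with each probe's own spread.

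**Figure D5:**
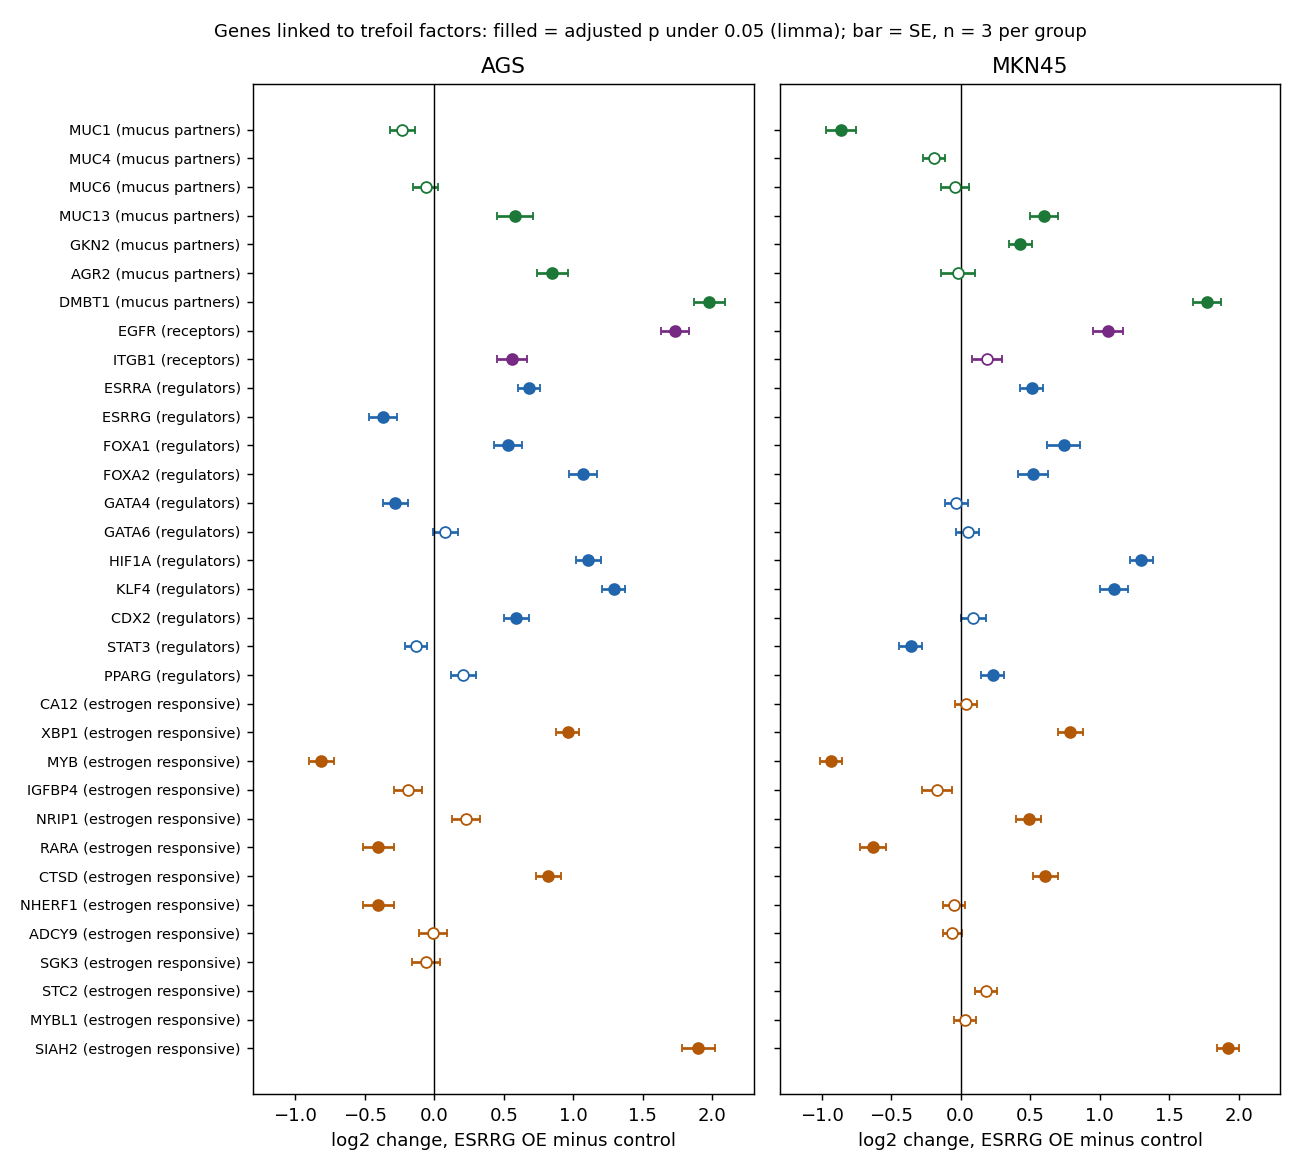
Log2 fold change, ESRRG OE minus control, of each tested gene of the partner, receptor, regulator and estrogen-responsive lists in AGS and MKN45 cells, with the SE as a bar and filled points where the adjusted p was under 0.05. DMBT1 at 1.98 in AGS and SIAH2 at 1.92 in MKN45 are the largest changes of the 4 lists in their lines.

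Markers of the cell types in which each trefoil factor is normally found were mostly at background. None of 6 goblet cell markers passed the filter in either line. Of the pit cell markers besides TFF1, GKN1 was detected on no array and GKN2 gave the values above. Of the mucous neck markers besides TFF2, MUC6 was not called in either line, and PGC, the pepsinogen C gene, averaged 7.07 in ESRRG OE against 6.85 in control in AGS, at least 1.04-fold above the detection floor, and entered the test there only through its 3 ESRRG OE arrays, so its call is no support for a change.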

How the data were processed

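RNA of 12 samples was hybridized to Illumina Human BeadChip V4 arrays. The authors exported probe intensities and detection p-values with GenomeStudio, and deposited log2 values after quantile normalization in limma. Requantiling the deposited intensities gave the deposited log2 values within 5e-04. Genes came from the platform annotation: 30113 of 47323 probes had 1 symbol, 8 had several and 17202 had none. The deposited log2 values were fitted per line with limma 3.58.1 in R 4.3.3 (lmFit and eBayes), with Benjamini-Hochberg adjustment over all probes whose detection p was under 0.05 on at least 3 of 6 arrays and a threshold of 0.05. The interaction fit used all 12 samples. A gene with several probes was read by the one with the highest mean over all arrays. The script was tested on simulated data.

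The trefoil genes and all gene lists were chosen with earlier results of these data known. Values are given for list genes with the 4 largest changes past the test per list and line, and such a gene may be given in both lines. They are also given for the estrogen-related receptors, for neighbors, for markers, for the 5 genes most like TFF1, and for the lower regulators GATA4 and STAT3. Other genes that were undetected or not called are named to complete a list. CST4 was named after its value was seen. Floors are means of normalized log2 values over a group's arrays.

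Alternatives were scaling to 1 median, neqc with an offset of 16, quantiles set per line, omission of the detection filter, a detection p under 0.01, a fit of all 12 arrays, a replicate block, any probe of a gene, a 2-sample t-test on each probe's own spread and leaving out each sample. A figure legend of the study names such a test, at p under 0.001, whereas its methods name a random variance t-test, which shares spread between genes and was not run here. Replicate numbers were not used to pair the samples in the main fits, and so few samples cannot exclude a pairing. The number of arrays limits the precision.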

Additional observations from a re-analysis of the deposited data

Results flagged for a closer look

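List genes were read in a limma interaction fit over all 12 samples, in which 7.84% of all probes were called. Of those that could be tested, 2 of 7 trefoil partners, 1 of 3 receptors and 2 of 11 regulators differed between AGS and MKN45 cells in their ESRRG OE change. Among the estrogen-responsive genes 0 of 13 differed, and among the neighbors of the trefoil cluster 0 of 6. The change in AGS minus that in MKN45 was 0.87 for AGR2 (adjusted p = 0.00321), 0.63 for MUC1 (adjusted p = 0.00908), 0.66 for EGFR (adjusted p = 0.0129), 0.50 for CDX2 (adjusted p = 0.0205) and 0.55 for FOXA2 (adjusted p = 0.0383). CDX2, an intestinal homeobox factor, was higher by 0.59 in AGS and differed by 0.09 in MKN45. With scaling to 1 median none of the 5 passed, with adjusted p of 0.153 for AGR2, 0.0856 for MUC1, 0.196 for EGFR, 0.256 for CDX2 and 0.312 for FOXA2. With neqc AGR2 passed (adjusted p = 0.0208), and MUC1 (0.0589), EGFR (0.0755), CDX2 (0.1) and FOXA2 (0.13) did not.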

How the results depend on the processing

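No trefoil change reversed under any setting. With neqc the changes were 7.23 for TFF1 in AGS, 0.45 for TFF2 in AGS, 0.22 for TFF2 in MKN45, 0.17 for TFF3 in AGS and 0.43 for TFF3 in MKN45, and quantile normalization within the line gave 5.16 for TFF1 in AGS. Leaving out 1 sample at a time gave TFF1 changes of 5.22 to 5.38 in AGS and 5.40 to 5.57 in MKN45. The 2-sample t-test with Benjamini-Hochberg adjustment called 4066 probes in MKN45 against 6916 with limma, and 5953 in AGS against 8398. At its threshold of p under 0.001 it called 1251 in MKN45 and 2038 in AGS. This test, which uses each probe's own spread, also ended the calls of C2CD2 (adjusted p = 0.052 in AGS and 0.0846 in MKN45), MUC13 (0.113 in AGS and 0.0503 in MKN45), SLC37A1 (0.0725) and ITGB1 (0.058) in AGS, and FOXA1 (0.0526) and FOXA2 (0.0874) in MKN45. Scaling to 1 median moved the median change of all probes from -0.02 to 0.08 in AGS and to 0.12 in MKN45, and the share of calls that were higher from 47.1% to 71.3% in AGS and from 49.5% to 89.5% in MKN45.

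For the receptors, the 2-sample t-test called 1 in AGS, and in MKN45 scaling to 1 median or no detection filter called 2, as against 1, with a range of 1 to 2 when 1 sample was left out. For the neighbors of the trefoil cluster, scaling to 1 median and the 2-sample t-test each called 2 in AGS and 0 in MKN45 (at an unadjusted p under 0.05, 1 by each, against 2 by limma on the deposited values), with ranges of 2 to 3 in AGS and 1 to 2 in MKN45 when 1 sample was left out. Of the 5 genes most like TFF1, 2 were shared with scaling to 1 median. The causes were not tested.

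After each probe's group mean was subtracted, same-numbered ESRRG OE and control samples correlated at -0.102 to 0.215 in AGS and -0.016 to 0.233 in MKN45. Differently numbered samples correlated at -0.202 to 0.229 in AGS and -0.247 to 0.233 in MKN45. The numbers were not used to pair the samples. A replicate block cannot move the TFF1 changes, since each replicate number occurs once in each group. With the block 8463 probes in AGS and 7244 in MKN45 were called. Counting each pair of a result and an alternative setting once, 256 pairs of main results were labeled as kept and 21 as moved. Of the pairs for single named genes 440 kept their call and 23 lost it. Some of the 256 could not move. The detection filters, the fit of all arrays, the block and the t-test leave each trefoil difference of means unchanged. The 256 also hold TFF1 in MKN45 with neqc, at 6.70 against 5.50 on the deposited values. TFF1 in AGS with quantiles set per line, at 5.16 against 5.32, was labeled as moved. The tally therefore does not measure how stable the TFF1 sizes were. TFF2 and TFF3 are limited by signal over background, and the AGS control level of TFF1 is a bound.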
